A study of Mus musculus with 10 samples.

Results

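Cardiomyocytes, the contractile cells of the heart, also carry transcripts of factors that act on blood vessels. The genes described here are 9 such symbols, chosen by name with earlier results of these data known. They include the vascular endothelial growth factors Vegfa, Vegfb and Vegfc, the angiopoietins Angpt1 and Angpt2, and the fibroblast growth factors Fgf1 and Fgf2. Also among the 9 are Hif1a and Epas1, which encode the oxygen-regulated alpha subunits of the hypoxia-inducible factors. All 9 were found among the 25239 gene symbols of the tables, and all 9 reached the mean of 10 normalized reads needed for testing. RNA sequencing was available from cardiomyocytes of the atrium and of the ventricle of wild-type (WT) mice, with 5 libraries from each chamber, numbered 1 to 5. Both groups carry the same genotype label and no treatment is named. The labels give no strain, age, sex or isolation method. Nor do they say that the libraries are from separate animals, and the p-values below therefore reflect only how much these libraries varied, which could be technical variation.

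VEGF-A is the main growth factor for capillary endothelium and signals through the receptor Kdr, VEGF-B acts through Flt1, and VEGF-C is best known for its action on lymphatic vessels through Flt4. Angiopoietin-1 activates the endothelial receptor Tek (Tie2) and steadies vessels, while angiopoietin-2, made largely by endothelium itself, can oppose it. When oxygen is low the hydroxylases that mark HIF alpha subunits for destruction are less active, so HIF abundance is set mostly at the protein level, which RNA does not show. In the heart, cardiomyocytes lie beside capillaries and are a known source of VEGF-A, VEGF-B and angiopoietin-1.

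The 250 bases before a RefSeq transcription start are shown for 3 genes because their RNA was lower in the atrial library of all 5 same-numbered pairs. A further reason is that the VEGF genes and the gene for the HIF-1 alpha subunit are the ligand and regulator sides of the same pathway. Vegfc, also lower in all 5 pairs, is not shown because it rests on few reads. The sequences are from RefSeq on the build GRCm38.p6, 5′ to 3′ on the gene's strand, with the core letters bound by HIF factors in capitals (ACGTG or GCGTG, searched on both strands). They lie at chr17:46032378-46032627 (minus strand) for Vegfa, chr19:6987652-6987901 (minus strand) for Vegfb and chr12:73907617-73907866 (plus strand) for Hif1a. No annotated exon falls in these windows. The Hif1a window lies inside the annotated span of the gene, which begins further upstream at chr12:73901375.
Vegfa: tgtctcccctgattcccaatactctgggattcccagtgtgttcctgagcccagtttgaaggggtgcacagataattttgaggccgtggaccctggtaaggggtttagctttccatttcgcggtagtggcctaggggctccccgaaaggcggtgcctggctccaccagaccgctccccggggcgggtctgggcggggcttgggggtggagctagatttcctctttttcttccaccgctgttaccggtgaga
Vegfb: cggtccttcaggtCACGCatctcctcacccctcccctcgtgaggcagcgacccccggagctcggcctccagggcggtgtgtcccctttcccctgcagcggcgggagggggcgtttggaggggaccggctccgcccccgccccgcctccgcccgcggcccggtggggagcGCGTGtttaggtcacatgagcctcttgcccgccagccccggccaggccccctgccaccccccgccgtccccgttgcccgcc
Hif1a: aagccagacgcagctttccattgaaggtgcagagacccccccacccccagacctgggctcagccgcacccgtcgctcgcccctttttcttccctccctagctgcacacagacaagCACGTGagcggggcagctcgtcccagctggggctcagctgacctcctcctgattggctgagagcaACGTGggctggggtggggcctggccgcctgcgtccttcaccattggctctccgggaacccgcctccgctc
The Vegfa window shown held 0 HIF core matches and 2 matches to the GC box GGGCGG, which Sp-family factors bind. A further RefSeq start of Vegfa, whose window at chr17:46025164-46025413 overlaps an annotated Vegfa exon and is not shown, held 2 HIF core matches. The Vegfb window held 2 HIF core matches, 237 to 233 and 81 to 77 bases before the start, and 4 GC boxes. The Hif1a window held 3 HIF core matches, of which 2 overlap on opposite strands in CACGTG, and 0 GC boxes. Of the 32851 RefSeq promoter windows of this length, 38.6% held a HIF core match and 32.7% a GC box, so a match is common, and a window without these letters says nothing of sites elsewhere. Promoter entries were matched for 5 of the 9 genes.

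The libraries fall into 2 sets that the labels do not name. Replicates 1 and 2 of both chambers held 1790402 to 4445287 reads with 0.215% to 0.480% from the ribosomal RNA gene Rn45s, and replicates 3 to 5 held 11163805 to 12842635 reads with 23.1% to 29.8% from it. Cardiomyocyte markers, such as the sarcomere genes, were read in every library (summed level of 10 genes 342632 to 836582 normalized reads). Chamber markers followed the labels: 8 of 8 atrial markers were higher in atrial libraries and 5 of 6 ventricular markers were higher in ventricular ones. Genes listed as markers of other cell types were read as well, and whether their RNA came from such cells was not tested. Endothelial markers summed to 3532 normalized reads in atrial library 1 and 1474 in ventricular library 1, against 153 to 370 in the other 8. Of the 13 tested, 0 were called in either direction without the replicate block. With the block 4 were called higher in atrial and 1 in ventricular libraries, against 16.3% and 16% of all genes tested. The counts that follow are without the block, where 8.12% of all genes tested were called higher in atrial and 6.56% in ventricular libraries. Epicardial markers were called higher in atrial libraries for 8 of 9 genes (summed level 3073 to 7318 against 464 to 2833). Pericyte and smooth muscle markers were called higher in ventricular libraries for 4 of 10 (2529 to 7553 against 12232 to 18083). Fibroblast markers were called higher in ventricular libraries for 3 of 10, but their sum differed by library set. It was 22740 and 30106 in atrial and 11373 and 23214 in ventricular libraries 1 and 2. In libraries 3 to 5 it was 35217 to 37263 in atrial and 51715 to 67353 in ventricular ones. The part of these cells in the values below was not tested, and in such bulk samples fewer cells of a type and less RNA per cell cannot be told apart.

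Between the chambers, Angpt1 was higher in atrial libraries, Vegfa and Vegfb were higher in ventricular libraries, and the other 6 genes did not pass the test. A gene was called at an adjusted p of at most 0.05 in limma's moderated test on log2(normalized reads + 1), adjusted over all 12422 genes tested, and differences are given as atrial minus ventricular. The 1 atrial call among the 9 stands beside 8.12% of all genes tested called higher in atrial libraries, and the 2 ventricular calls beside 6.56% called higher in ventricular ones. For 3 of the 9 there was no overlap between the chambers, against 14.4% of all genes tested. Same-numbered libraries of the 2 chambers deviated together, with the difference between the library sets included in these deviations. In the fit with the replicate number as a block 2 of the 9 were called higher in atrial and 3 in ventricular libraries, against 16.3% and 16% of all genes. Without both libraries numbered 1, the calls were 1 atrial and 3 ventricular, against 1138 and 1005 of the 12422 genes tested. In that fit Vegfa was at -0.79 and Vegfb at -0.80, and Vegfc was added. The median difference of the 9 was 0.05 on the log2 scale, and that of all genes tested was -0.01.

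**Figure D1:**
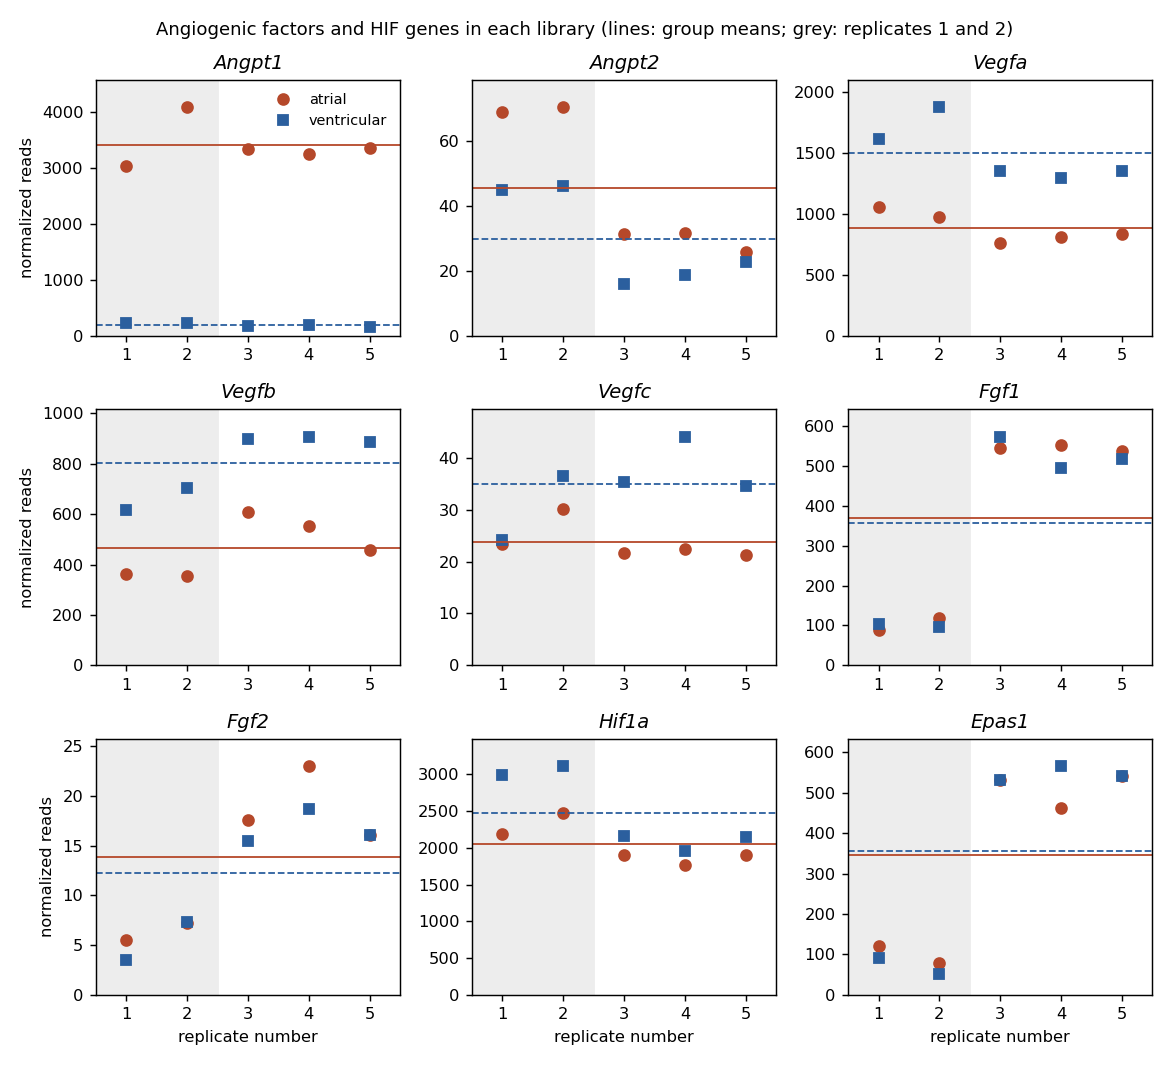
Normalized reads (vertical axis, linear, from 0) of the 9 genes by replicate number (horizontal axis), with atrial libraries as red circles, ventricular libraries as blue squares, group means as lines and replicates 1 and 2 shaded. Atrial values of Angpt1 (3036 to 4094) lie far above ventricular ones (161 to 235), ventricular values of Vegfa and Vegfb lie above all atrial ones, and Fgf1, Fgf2 and Epas1 are low in both chambers in replicates 1 and 2.

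Angpt1 (chr15:42424723-42676977, minus strand), whose product activates Tek on endothelium, was the gene with the largest chamber difference among the 9. Its normalized reads in atrial libraries 1 to 5 were 3036, 4094, 3352, 3258 and 3365. In ventricular libraries 1 to 5 they were 235, 234, 180, 184 and 161. The lowest atrial value, in library 1, was 12.9 times the highest ventricular value, so the groups were far apart. The atrial mean was 3421 ± 399 and the ventricular mean 199 ± 33.7 (SD, n = 5 each), 17.2-fold apart, with a log2 difference of 4.11 ± 0.14 (SE; limma, adjusted p = 3.52e-08). Replicates 1 and 2 alone gave a difference of 3.90, and replicates 3 to 5 alone gave 4.24. Without both libraries numbered 1, where endothelial markers were highest, it was 4.21.

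Angpt2 (chr8:18690263-18741562, minus strand), which lies within the span of Mcph1 but shares no exon with it, was read at a low level. Its atrial values were 69.0, 70.5, 31.2, 31.8 and 25.7 normalized reads and its ventricular values 45.0, 46.3, 16.1, 18.7 and 22.9, resting on 13 to 55 reads per library. The atrial library was the higher in 5 of 5 pairs, but the groups overlapped, and the values of replicates 1 and 2 lay 2.36-fold above those of replicates 3 to 5. With means of 45.7 ± 22.1 and 29.8 ± 14.7 (SD, n = 5 each), the log2 difference of 0.60 ± 0.40 (SE) was not called (limma, adjusted p = 0.401, 95% interval -0.27 to 1.48). The replicate block called the same difference (limma, adjusted p = 0.0288, 95% interval 0.21 to 1.0). Angpt2 was at 69.0 and 70.5 in atrial libraries 1 and 2, in which endothelial markers summed to 3532 and 314. It was at 45.0 and 46.3 in ventricular libraries 1 and 2, in which they summed to 1474 and 197. The part of endothelial cells in the Angpt2 values was not tested.

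Vegfa (chr17:46016993-46032369, minus strand) was lower in atrial than in ventricular cardiomyocytes. Its atrial values were 1056, 972, 761, 810 and 832 normalized reads, and its ventricular values were 1612, 1877, 1355, 1295 and 1350. The highest atrial library, number 1, was below the lowest ventricular library, number 4. The ventricular mean of 1498 ± 245 was 1.69-fold the atrial mean of 886 ± 123 (SD, n = 5 each), a log2 difference of -0.75 ± 0.14 (SE; limma, adjusted p = 0.00395). Replicates 1 and 2 alone gave -0.78, and replicates 3 to 5 alone -0.73. When libraries were scaled to equal totals instead of the deposited size factors, the difference was -0.68 and the call was lost (limma, adjusted p = 0.0731).

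Vegfb (chr19:6982473-6987651, minus strand), the ligand of Flt1, was also lower in atrial libraries. Atrial libraries 1 to 5 held 363, 354, 607, 552 and 460 normalized reads and ventricular libraries held 616, 702, 897, 907 and 885. The groups did not overlap, though atrial library 3 at 607 came close to ventricular library 1 at 616, and replicates 3 to 5 were 1.41-fold above replicates 1 and 2. Means of 467 ± 112 and 802 ± 134 (SD, n = 5 each) were 1.72-fold apart, with a log2 difference of -0.79 ± 0.18 (SE; limma, adjusted p = 0.0137). Fitted by itself, the set of replicates 1 and 2 gave -0.87 and that of replicates 3 to 5 gave -0.74. The difference was not called when libraries were scaled to equal totals without Rn45s and Lars2 (-0.74, limma, adjusted p = 0.0591).

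Vegfc (chr8:54077606-54187096, plus strand), the lymphatic growth factor, had low values of 23.4, 30.2, 21.6, 22.4 and 21.2 normalized reads in atrial and 24.2, 36.6, 35.3, 44.1 and 34.6 in ventricular libraries, from 7 to 66 reads. The ventricular library was the higher in 5 of 5 pairs, but by less than 1 normalized read in pair 1, and atrial library 2 lay above ventricular library 1. The log2 difference of -0.52 ± 0.20 (SE) was not called (limma, adjusted p = 0.123, 95% interval -0.97 to -0.08). Without ventricular library 1 it was -0.65 and called (limma, adjusted p = 0.0344), as it was without both libraries numbered 1 (-0.64, limma, adjusted p = 0.0391) and in replicates 3 to 5 alone (-0.77, limma, adjusted p = 0.000605). In replicates 1 and 2 alone the difference was -0.16, and the gap between the sets was not called (limma interaction, adjusted p = 0.376).

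Fgf1 (chr18:38838673-38929472, minus strand), a growth factor for endothelial cells and fibroblasts, did not pass the chamber test and divided by library set. Atrial libraries 1 to 5 held 88.3, 119, 546, 551 and 536 normalized reads, and ventricular libraries 104, 95.1, 573, 495 and 516. In both chambers replicates 3 to 5 were high and replicates 1 and 2 low, with a ratio of 5.28 between the sets. The log2 chamber difference was 0.05 ± 0.72 (SE; limma, adjusted p = 0.981), and its 95% interval of -1.55 to 1.64 allows differences of either sign. Under the replicate block the interval narrowed to -0.17 to 0.26 (limma, adjusted p = 0.744).

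Fgf2 (chr3:37348346-37410108, plus strand), a heparin-binding growth factor for endothelial cells, rested on 1 to 39 reads per library. Its values were 5.52, 7.2, 17.6, 23.0 and 16.1 in atrial and 3.46, 7.31, 15.5, 18.7 and 16.1 in ventricular libraries. As with Fgf1, all 6 libraries of replicates 3 to 5 were above all 4 of replicates 1 and 2, here by 3.04-fold. The log2 difference of 0.20 ± 0.52 (SE; limma, adjusted p = 0.888) had a 95% interval of -0.95 to 1.34, which narrowed to -0.40 to 0.79 under the replicate block and allows differences of either sign. Fgf2 shares exon bases with the antisense gene Nudt6, whose mean over all libraries was 47.5 normalized reads, and without a stated strand setting their reads cannot be told apart.

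**Figure D2:**
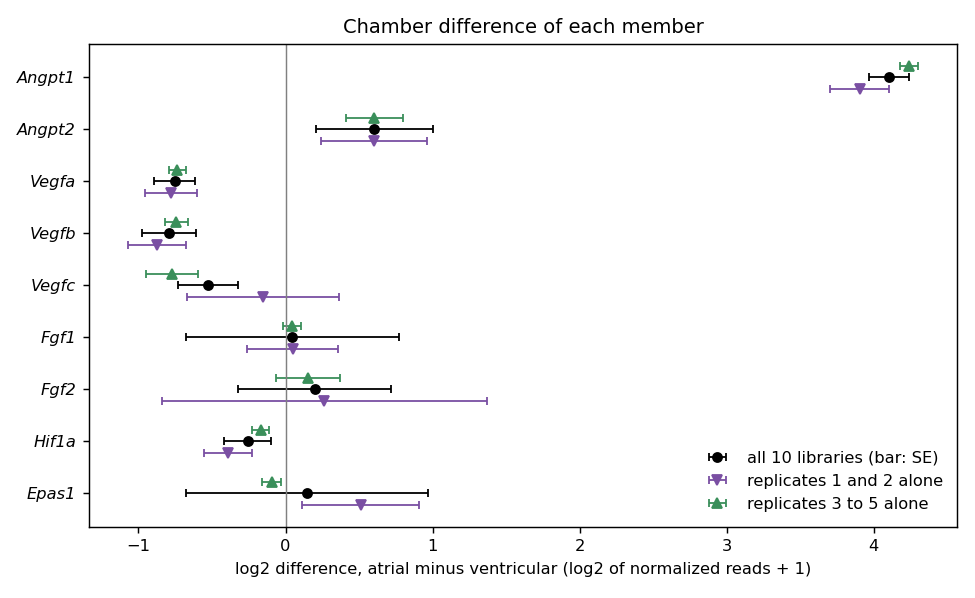
Log2 difference of normalized reads + 1, atrial minus ventricular (horizontal axis), for each of the 9 genes in all 10 libraries (black), replicates 1 and 2 alone (purple) and replicates 3 to 5 alone (green), with bars of 1 SE. Angpt1 stands near 4 in each fit, Vegfa and Vegfb near -0.8, and the black bars of Fgf1, Fgf2 and Epas1 are wide because these genes differ between the library sets.

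Hif1a (chr12:73901375-73947530, plus strand), the HIF-1 alpha subunit, is the subunit through which most cells answer a fall in oxygen. Atrial libraries held 2189, 2479, 1898, 1769 and 1905, and ventricular libraries held 2996, 3110, 2155, 1962 and 2146. The ventricular library was the higher in 5 of 5 pairs, while atrial libraries 1 and 2 lay above ventricular libraries 3, 4 and 5. The means were 2048 ± 285 and 2474 ± 536 (SD, n = 5 each), and the log2 difference of -0.26 ± 0.16 (SE) was not called (limma, adjusted p = 0.372, 95% interval -0.61 to 0.10). Under the replicate block it was called (limma, adjusted p = 0.0208, 95% interval -0.41 to -0.10). The set of replicates 1 and 2 gave -0.39, and the set of replicates 3 to 5 gave -0.17.

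Epas1 (chr17:86753700-86833410, plus strand), which encodes the HIF-2 alpha subunit and is prominent in endothelium, showed the widest gap between the library sets. Its values were 121, 77.7, 532, 463 and 543 normalized reads in atrial and 89.96, 51.2, 532, 566 and 541 in ventricular libraries. Replicates 3 to 5 lay 6.22-fold above replicates 1 and 2. Endothelial markers summed to 3532 and 1474 in the 2 libraries numbered 1, 314 and 197 in those numbered 2, and 153 to 370 in replicates 3 to 5, and their part in the Epas1 values was not tested. The log2 chamber difference of 0.15 ± 0.82 (SE) was not called (limma, adjusted p = 0.953, 95% interval -1.67 to 1.97). The lower-numbered set alone (replicates 1 and 2) gave 0.51 and the other set -0.09, a gap that limma's interaction test called under the replicate block (adjusted p = 0.0393) but not without it (adjusted p = 0.333).

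Without the block, limma's interaction test called a difference between the library sets for 0 of the 9 genes, with 0 at an unadjusted p under 0.05 (adjusted p 0.297 to 0.997), against 5.21% of all genes tested. Leaving out atrial library 2 gave 1 call, Angpt1 (limma, adjusted p = 0.0194). In replicates 3 to 5 alone, 6 of the 9 were called, namely the 3 above with Vegfc, Angpt2 and Hif1a, against 52.8% of all genes. In replicates 1 and 2 alone, 3 of the 9 were called, against 5.14%.

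Per kilobase of exon, which lets levels of different genes be set side by side, the place of Angpt1 among the 9 was not the same in the 2 chambers. In atrial libraries Angpt1 came first with a mean of 657 normalized reads per kilobase (583 to 786), above Hif1a (347), Vegfb (291) and Vegfa (207). The Angpt1 values did not overlap those of Hif1a, whereas the ranges of Hif1a and Vegfb, and of Vegfb and Vegfa, overlapped. In ventricular libraries Vegfb (499), Hif1a (420) and Vegfa (350) had the highest means, each overlapping its neighbour, and Angpt1 had a mean of 38.2 (31.0 to 45.2), inside the ranges of Fgf1 (17.4 to 105) and Epas1 (9.16 to 101). The order depended on the library set in both chambers. In atrial libraries 1 and 2 Vegfa (247 and 227) lay above Vegfb (226 and 221). In atrial libraries 3 to 5 Vegfa lay below Vegfb (178 to 194 against 286 to 378). In ventricular libraries 1 and 2 Hif1a came first. There Angpt1 (45.2 and 45.0) lay above Fgf1 (19.0 and 17.4) and Epas1 (16.1 and 9.16). In ventricular libraries 3 to 5 Vegfb came first and Angpt1 (31.0 to 35.4) lay below both Fgf1 and Epas1. Fgf1 (67.4 atrial, 65.3 ventricular) and Epas1 (62.1 and 63.7) overlapped each other in both chambers. Epas1 overlapped Angpt2 in both chambers, Fgf1 overlapped Angpt2 in atrial libraries, and both overlapped Vegfc in ventricular ones. The last places were held by Angpt2 (12.4 and 8.07), Vegfc (9.71 and 14.3) and Fgf2 (2.05 and 1.80), of which Angpt2 and Vegfc overlapped in both chambers, and Fgf2 lay below both in every library.

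**Figure D3:**
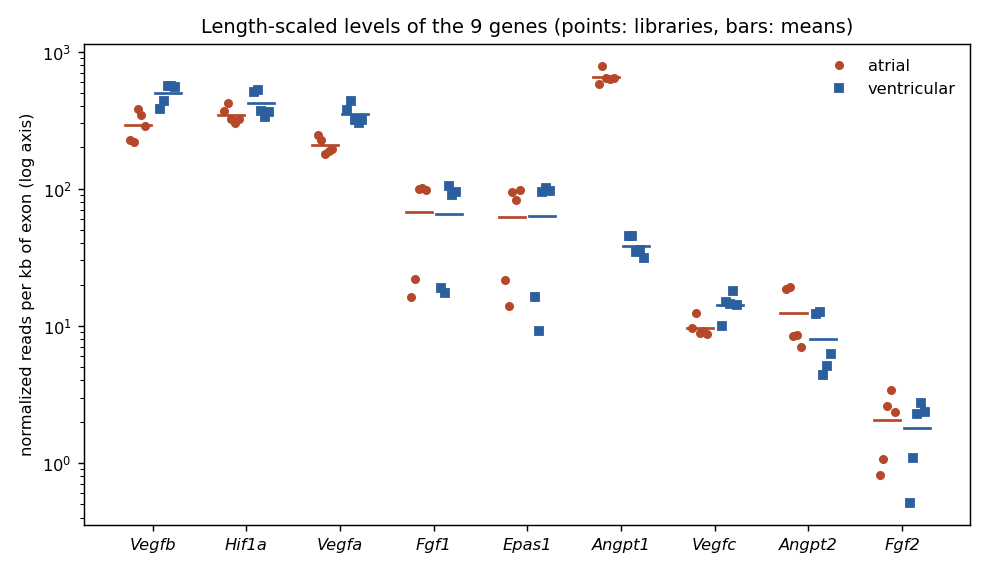
Normalized reads per kilobase of exon (vertical log axis) for the 9 genes, with atrial libraries as red circles, ventricular libraries as blue squares and group means as bars. Angpt1 has the highest values in atrial libraries (mean 657) and lies below Vegfb, Hif1a and Vegfa in ventricular ones (38.2), and Fgf1 and Epas1 each form a high and a low cluster in both chambers.

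Ratios within a library compare paired genes on the log2 scale with little influence of the library's scaling. Angpt1 exceeded Angpt2 by 5.44, 5.84, 6.70, 6.63 and 6.98 in atrial libraries and by 2.36, 2.31, 3.40, 3.23 and 2.77 in ventricular ones. The ratio was higher in every atrial library, with means of 6.32 ± 0.65 and 2.81 ± 0.49 (SD, n = 5 each) and a difference of 3.50 (two-sided exact permutation test, p = 0.00794, the smallest that 5 against 5 can give, adjusted p = 0.0317 over 4 ratios). This test leaves out the replicate number and the library sets. The difference was not called by the exact sign-flip test over the 5 same-numbered pairs (adjusted p = 0.25) or by exact permutation within the sets (adjusted p = 0.0667). The ratio of Vegfa to Vegfb was 0.95 ± 0.54 in atrial and 0.90 ± 0.46 in ventricular libraries (exact permutation p = 0.849, adjusted p = 0.849), so a difference between the chambers was not detected although each gene alone was lower in atrial libraries. The ratio of Fgf1 to Fgf2 was 4.41 ± 0.56 and 4.56 ± 0.62 (exact permutation p = 0.746, adjusted p = 0.849). The ratio of Hif1a to Epas1 was 4.16 to 5.90 in the 4 libraries of replicates 1 and 2 and 1.79 to 2.02 in the 6 of replicates 3 to 5, and its chamber difference of -0.40 was not called (exact permutation p = 0.563, adjusted p = 0.849).

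**Figure D4:**
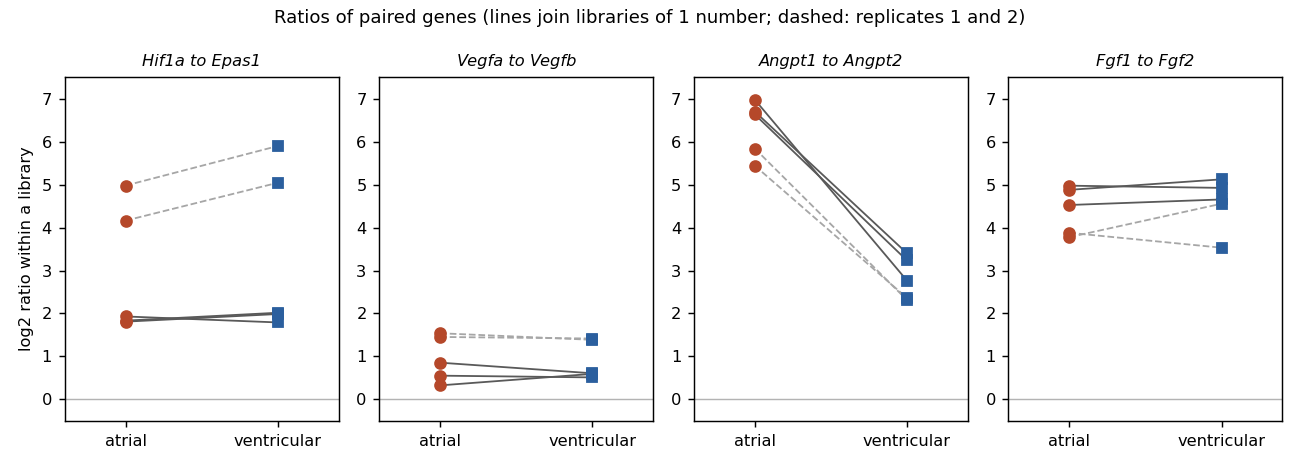
Log2 ratio of 2 genes within each library (vertical axis) for 4 gene pairs, atrial at the left and ventricular at the right of each panel, with lines joining same-numbered libraries (dashed for replicates 1 and 2). The ratio of Angpt1 to Angpt2 is lower in the ventricular library of all 5 pairs, and that of Hif1a to Epas1 splits by library set rather than by chamber.

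Of 17 other secreted factors that act on vessels, 14 were tested, and 2 were higher in atrial and 5 in ventricular libraries, against 8.12% and 6.56% of all genes tested. With the replicate block the counts were 2 and 7, against 16.3% and 16%. Their median log2 difference was -0.51, and that of all genes -0.01. Pdgfc, a mitogen for mesenchymal cells, averaged 144 ± 19.9 normalized reads in atrial libraries and 7.0 ± 2.33 in ventricular libraries (log2 difference 4.23 ± 0.24 SE). Adm, the vasodilator adrenomedullin, averaged 300.3 ± 75.5 and 30.9 ± 10.7 (3.27 ± 0.27). The ventricular side held Fgf9 (16.5 against 95.9, -2.52) and Fgf16 (2.96 against 33.6, -3.36), which are growth factors of one subfamily, Cxcl12 (67.9 against 255, -1.76), a chemokine for endothelial and blood cells, Igf1 (159 against 333, -1.03), not called with equal totals without Rn45s and Lars2 (limma, adjusted p = 0.0525), and Pgf (13.3 against 52.4, -2.15), a further ligand of Flt1. For Pgf the chamber difference was small in replicates 1 and 2, at -0.33, but -3.37 in the higher-numbered set, and these differed (limma interaction, adjusted p = 0.00660). Not called without the replicate block, but called with it, were Fgf18 (-0.86) and Hgf (-1.31) (limma, adjusted p = 0.0306 and 0.0442).

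Among the receptors, 11 of 12 were tested, and 3 were higher in atrial and 1 in ventricular libraries, against 8.12% and 6.56% of all genes. The median log2 difference was 0.73. Kdr, the receptor of VEGF-A, held 450, 212, 318, 324 and 375 normalized reads in atrial and 353, 34.1, 55.8, 78.2 and 89.6 in ventricular libraries (1.91 ± 0.51 SE; limma, adjusted p = 0.0293). Ventricular library 1 lay within the atrial range. Tek, the angiopoietin receptor, held 732, 402, 530, 495 and 525 against 215, 129, 314, 379 and 373 (1.01 ± 0.29 SE; limma, adjusted p = 0.0407), with no overlap. The summed endothelial markers were at 153 to 164 in atrial and 280 to 370 in ventricular libraries 3 to 5. Of the 13 markers tested, 0 were called without the replicate block. With it 4 were called higher in atrial and 1 in ventricular libraries, against 16.3% and 16% of all genes. The part of endothelial cells in the values of Kdr and Tek was not tested. Fgfr2 was also higher in atrial libraries (69.5 against 27.4, 1.36), and Nrp1, a VEGF co-receptor, in ventricular ones (723 against 1355, -0.86), a call lost with equal totals (limma, adjusted p = 0.0804). The call of Kdr was lost without any 1 of 8 libraries, in edgeR on the recovered reads (1.56, adjusted p = 0.0751) and in replicates 1 and 2 alone (limma, adjusted p = 0.676), and that of Tek was lost without any 1 of 6. The atrial count was 1 without atrial library 1, 3, 4 or 5 or without ventricular library 3, and 2 without both libraries numbered 1. The replicate block gave 5, against 16.3% of all genes, with Flt4 (0.73) and Nrp2 (0.74) added (limma, adjusted p = 0.0499 and 0.0450).

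Of the 15 partners and regulators of HIF, all tested, 1 was called, and the median log2 difference was 0.03. The call was Arnt2, an alternative partner of the alpha subunits, which was higher in atrial libraries, as were 8.12% of all genes (62.3 against 27.9 normalized reads, 1.06), and it was lost without any 1 of 8 libraries. Vhl, which binds hydroxylated HIF alpha for degradation, differed by 0.35 and the hydroxylase gene Egln1 by -0.29, neither called. The replicate block added 2 ventricular calls among the 15, Egln1 being 1 of them (limma, adjusted p = 0.0166), against 16% of all genes.

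Of the known HIF target genes, leaving out the 9, 25 were tested, and 3 were higher in atrial and 5 in ventricular libraries, against 8.12% and 6.56% of all genes. Their median log2 difference was -0.26. The ventricular side held genes of glycolysis: Ldha, lactate dehydrogenase A (2040 against 3834 normalized reads, -0.90), Hk2, a hexokinase (349 against 661, -0.92), and Pgk1, phosphoglycerate kinase (968 against 1683, -0.77). It also held the mitochondrial genes Higd1a (233 against 494, -1.10) and Ndufa4l2 (9.14 against 36.9, -1.89). The atrial side held Ndrg1 (133 against 59.6, 1.14), the lipoprotein receptor gene Vldlr (3219 against 1929, 0.72) and Car9, a carbonic anhydrase (27.4 against 9.94, 1.32). Pgk1 was not called with libraries scaled to equal totals. Under the replicate block 4 were called higher in atrial and 10 in ventricular libraries, against 16.3% and 16% of all genes, and the atrial ones then included Hmox1 (1.06, limma, adjusted p = 0.0223), while Ddit4 (-0.62) was called in neither fit.

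Inhibitors of vessel growth were 9, all tested, with 1 higher in each chamber, close to the 8.12% and 6.56% of all genes, and a median log2 difference of 0.31. Timp3, an inhibitor of metalloproteinases that also binds Kdr, averaged 2113 ± 319 normalized reads in atrial libraries and 1255 ± 395 in ventricular libraries (0.79 ± 0.20 SE; limma, adjusted p = 0.0210), a call that was lost without any 1 of the 6 libraries of replicates 3 to 5 (limma, adjusted p 0.0529 to 0.0574). Vash1, which encodes vasohibin-1, was at 45.1 ± 11.1 and 155 ± 67.4 (-1.67 ± 0.34 SE; limma, adjusted p = 0.00648). With the replicate block Col4a3 (1.56) and Col18a1 (0.91), sources of the fragments tumstatin and endostatin, were called as well (limma, adjusted p = 0.00133 and 0.00166). Without both libraries numbered 1, the atrial and ventricular counts were 2 and 6 for the secreted factors and 2 and 1 for receptors. They were 1 and 0 for HIF partners, 3 and 6 for HIF targets and 2 and 1 for inhibitors. In the same fit 1138 and 1005 of the 12422 genes tested were called.

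**Figure D5:**
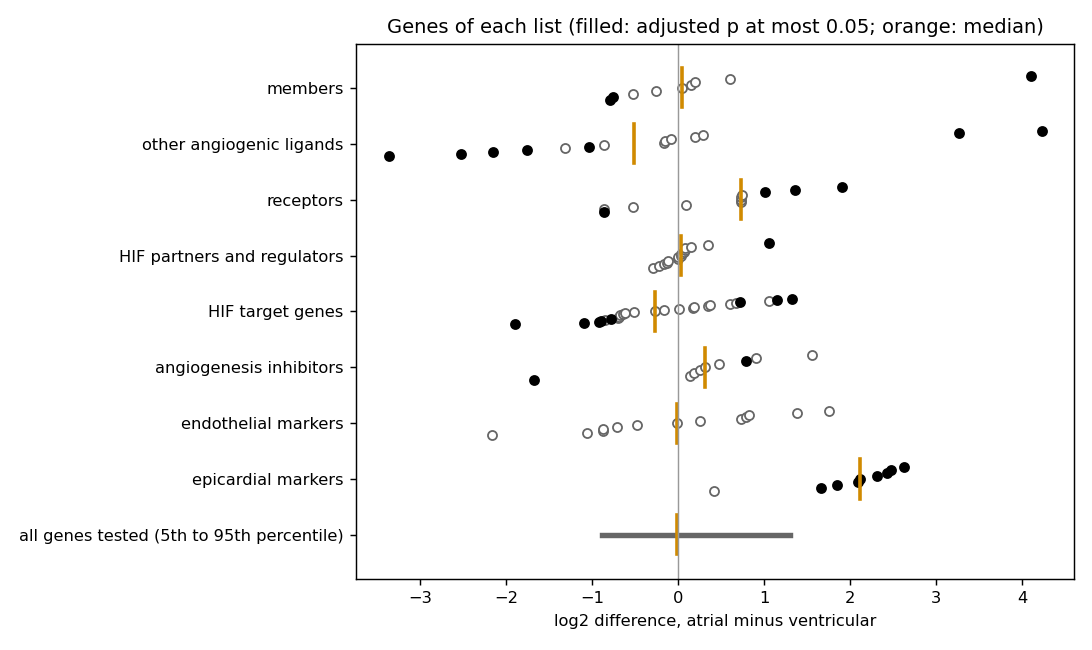
Log2 difference, atrial minus ventricular (horizontal axis), of each tested gene in each list, with filled points for an adjusted p of at most 0.05, orange ticks for list medians and, at the bottom, the 5th to 95th percentile of all genes tested. Angpt1 among the 9 members and Pdgfc and Adm among the other secreted factors lie at 3.27 or above, HIF partners cluster at 0, and all but 1 of the epicardial markers are called on the atrial side.

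The genes whose values over the 10 libraries were most like those of the called members, by Pearson correlation of log2(normalized reads + 1) among 7334 genes with a mean of at least 100, are given as a description. Libraries of a chamber and a set share their level, so high coefficients are common. Angpt1 was closest to Gja5 (0.994), the gap junction gene of atrial muscle and the conduction system, and to Fam49a (0.993). Vegfa was closest to Gpr22 (0.985), which encodes a receptor of heart muscle, and Gsn (0.985), the gelsolin gene, which is also on the fibroblast marker list. Vegfb was closest to Rhot2 (0.982) and Sdhb (0.977), both genes of mitochondrial proteins.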

How the data were processed

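Total RNA of mouse cardiomyocytes was sequenced. Per the labels' protocols, Trizol was used for extraction, and the kit for library construction was ScriptSeq v2. The submitters' processing notes name Trimmomatic, HISAT2, featureCounts and the build GRCm38 (mm10), with versions, annotation and strand setting not given in the sources used here. In the deposited files each symbol has a normalized signal, which per the file headers is the authors' read count over the library's DESeq2 size factor. Dividing by the smallest step of each library gave whole reads, within 0.01, for 100% of values. A value of 0 allows up to 3 reads, or 1.70 to 10.4 normalized reads, which covers counting error only.

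The 12422 genes whose mean reached 10 normalized reads were tested on log2(normalized reads + 1) with limma 3.58.1 (R 4.3.3, settings trend and robust), two-sided, with Benjamini-Hochberg adjustment at 0.05. This scale understates the change of low genes, and folds in the text are ratios of group means. Scripts were tested on simulated data. Within each group the replicates varied beyond sampling noise. Same-numbered libraries deviated together (correlations of deviations from the chamber mean 0.556 to 0.637). These deviations include the difference between the library sets, so they do not show that a number marks a matched pair. The replicate number served as a block where this changes a call. Alternatives were edgeR 4.0.16 and DESeq2 1.42.0 on the recovered reads, other pseudocounts, filters and scalings, the library set as a term, each set alone, and leaving out each library. Ratios were tested by exact permutation (scipy 1.17.1).

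Positions (whole genes) and exon lengths are from GENCODE M21 (GRCm38), matched for 24366 of 25239 symbols. Transcripts of paired members shared runs of at most 12 to 18 bases. The 9 genes and all lists were chosen with earlier results of these data known. Genes named are the members, the called genes of 5 lists (at most 6 per direction), the 2 smallest p-values among those not called in each list, and the 2 genes most like each called member. Of other marker lists, 1 of 10 cardiomyocyte markers was higher in ventricular libraries, against 6.56% of all genes tested. Higher in atrial libraries were 1 of 4 macrophage and 1 of 2 neuronal and Schwann markers tested, against 8.12%. The 2 erythroid markers tested were not called. With the replicate block 4 cardiomyocyte markers were higher in ventricular libraries, against 16% of all genes. In that fit 2 macrophage and 1 neuronal and Schwann markers were higher in atrial libraries, against 16.3%.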

Additional observations from a re-analysis of the deposited data

Results flagged for a closer look

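Vegfc in atrial library 2 stood apart from the other 4 atrial libraries. Its value there was 30.2 normalized reads, against 21.2 to 23.4 in the others, and the gap was 0.754 of the whole range, above the critical value of 0.710 for 5 samples. It was the only 1 of 26 groups examined in this way, and chance alone marks about 1 group in 20.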

How the results depend on the processing

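Across 23 alternatives, Angpt1 kept its call in all (log2 difference 3.90 to 4.24), and Vegfa (-0.82 to -0.67) and Vegfb (-0.90 to -0.70) in 22 each. Vegfc was called in 4 of 22, Angpt2 in 3 of 22 and Hif1a in 3 of 23, and Fgf1, Fgf2 and Epas1 in none. A mean of at least 50 left Vegfc, Angpt2 and Fgf2 untested. Members called higher in ventricular libraries were 1 with equal totals, 1 with equal totals without Rn45s and Lars2, and 4 in replicates 3 to 5 alone. Over all genes tested these fits called 539, 631 and 3307 in that direction, against 815 in the main fit. Members called higher in atrial libraries were 2 with the replicate block, 2 with the library set as a term and 2 in replicates 3 to 5 alone. The counts over all genes tested were 2026, 1989 and 3254, against 1009 in the main fit. The difference of Epas1 turned to -0.055 in edgeR, -0.0358 in DESeq2 and -0.0941 in replicates 3 to 5 alone. Leaving out each library moved Epas1 from -0.40 to 0.58, Fgf1 from -0.33 to 0.46 and Fgf2 from -0.15 to 0.45. It moved the ratio of Vegfa to Vegfb from -0.11 to 0.20, that of Fgf1 to Fgf2 from -0.41 to 0.00668 and that of Hif1a to Epas1 from -0.91 to 0.23. The Angpt1 to Angpt2 difference of 3.50 was not called by the paired sign-flip test (replicate block, exact adjusted p = 0.25, smallest possible p 0.0625). Nor was it with labels permuted within library sets (exact permutation, adjusted p = 0.0667, smallest possible p 0.0167). Both designs allow few labelings, and the ratio gave the smallest p of each. Members whose chamber difference differed between the sets were 1 with the replicate block, and 0 to 1 when each library was left out. The cause of these changes was not tested. The replicate block added the calls of Angpt2 (atrial) and Hif1a (ventricular), with limma adjusted p of 0.0288 and 0.0208. It changed no other chamber call of the 9.

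Over all genes, 1009 atrial and 815 ventricular calls became 2026 and 1991 with the replicate block, 1989 and 1966 with the library set as a term, 3254 and 3307 in replicates 3 to 5 alone, 384 and 254 in the other set alone, and 1014 and 539 with equal totals. Leaving out both libraries numbered 1, chosen after seeing the data, gave 1 atrial and 3 ventricular calls among the 9. Over all genes it gave 1138 and 1005. Fgf2 (1 to 39 reads), Vegfc (7 to 66) and Angpt2 (13 to 55) rest on few reads per library. In replicates 1 and 2 alone, 13 of the 22 called list genes lost their call. That fit called 5.14% of all genes tested in either direction. With all 10 libraries 8.12% were called higher in atrial and 6.56% in ventricular libraries.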
